A study of Rattus norvegicus with 5 samples.

Results

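The genes described here carry retinoic acid or its precursor (Crabp1, Crabp2 and Rbp4), make it (Aldh1a1 and Aldh1a2), receive it in the nucleus (Rarb) or respond to it (Rarres1 and Rarres2). They were taken as every probe set of the array whose only gene symbol was one of these names, which gave 8 probe sets for 8 genes, among 14217 genes that had at least 1 probe set with a single symbol. The genes were picked with their values on all 5 arrays known, so the values below describe them and no test is made of them. RNA came from laser-captured cells of wild type, male Sprague-Dawley rats aged 5 weeks. In the mandibular condylar cartilage (MCC), the fibrocartilage of the jaw joint, 4 layers were captured. From the joint surface towards the bone they are the fibrous zone (FZ), the proliferative zone (PZ), the mature zone (MZ) and the hypertrophic zone (HZ), and FZ and PZ are called superficial and MZ and HZ deep below. The control was chondrocytes from the middle and deep layers of femoral condylar cartilage (FCC), which is hyaline cartilage of the knee. The labels state that sections cut at 7 µm were pooled for each group, 30 per group, whereas the methods state a larger number for FZ. Each group gave 1 array. Without replicates there was nothing to test against, and differences are given as sizes only. In such captured tissue, a larger share of cells that express a gene and more RNA per cell cannot be told apart.

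Retinoic acid is made from vitamin A inside cells. Retinol circulates bound to Rbp4, is oxidized to retinal, and is then oxidized to retinoic acid by the Aldh1a enzymes. The small cytoplasmic proteins Crabp1 and Crabp2 bind retinoic acid. Crabp2 is known to hand it to the retinoic acid receptors in the nucleus, and Crabp1 to hold it in the cytoplasm and pass it to the Cyp26 enzymes that break it down. In cartilage, retinoic acid is known to hold back the early chondrocyte programme and to promote hypertrophy, and an excess or a lack of vitamin A disturbs skeletal growth. All values below are log2 values relative to the median of the same probe set over the 5 arrays, so they compare arrays for 1 gene and give no level that could be set against another gene. A difference of 1 is 2-fold and a difference of 2 is 4-fold. As in the methods of the study, a log2 difference of at least 2 was counted. A second scaling is named where it changes a sign or a call, in which the arrays were shifted so that 18 hybridization control probe sets, for labelled RNA added to every sample, had equal means.

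The promoters of 3 of the genes are shown because Crabp1 and Crabp2 had their highest values in the same zones, and because Rarb is the textbook example of a gene that retinoic acid switches on through a repeated binding site. The sequences are those of RefSeq on GRCr8, the rat genome assembly of that table, and run from 250 bases before to 50 bases after the annotated start of the gene. All 8 genes were found in the table. In Rarb (chr15:11336142-11336441, plus strand) the capitals mark a direct repeat of the receptor binding motif. In Crabp1 (chr8:64047181-64047480, plus strand) and Crabp2 (chr2:175714612-175714911, plus strand) they mark the GC box GGGCGG on either strand, a motif bound by Sp1-family factors.
Rarb: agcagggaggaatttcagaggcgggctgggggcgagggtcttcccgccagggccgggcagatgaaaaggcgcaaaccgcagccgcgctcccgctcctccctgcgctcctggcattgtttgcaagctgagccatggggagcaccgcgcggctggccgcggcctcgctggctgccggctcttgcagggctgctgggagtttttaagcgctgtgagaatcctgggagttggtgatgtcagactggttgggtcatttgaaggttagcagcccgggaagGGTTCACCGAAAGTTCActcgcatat
Crabp1: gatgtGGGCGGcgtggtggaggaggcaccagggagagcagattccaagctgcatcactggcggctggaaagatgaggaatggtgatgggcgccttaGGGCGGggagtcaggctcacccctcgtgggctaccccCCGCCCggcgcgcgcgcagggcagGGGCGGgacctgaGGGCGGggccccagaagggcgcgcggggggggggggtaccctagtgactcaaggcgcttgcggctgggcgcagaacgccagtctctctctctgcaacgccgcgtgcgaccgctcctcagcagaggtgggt
Crabp2: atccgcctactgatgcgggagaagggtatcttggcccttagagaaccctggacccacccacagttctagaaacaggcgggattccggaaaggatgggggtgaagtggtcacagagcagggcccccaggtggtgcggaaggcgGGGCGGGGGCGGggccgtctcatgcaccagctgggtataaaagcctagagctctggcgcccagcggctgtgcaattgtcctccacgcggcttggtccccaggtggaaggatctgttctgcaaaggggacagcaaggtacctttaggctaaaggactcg

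The receptor motif was searched on both strands as AGGTCA and in 3 variants of it. One variant, AGTTCA, differs inside the motif. Another, GGGTCA, differs at its first base, and GGTTCA joins both changes. Any pair of these counted as a direct repeat where 1, 2 or 5 bases lay between them. The Rarb window held 1 such repeat, with GGTTCA ahead of the motif AGTTCA and 5 bases between them, at bases 25 to 41 after the annotated start. A repeat with 5 bases between the motifs was found in 0.382% of the 33469 promoters searched, and those with 1 and 2 bases in 0.233% and 0.17%. None of the 3 kinds matched within the windows of the other 7 genes. The GC box occurred 5 times in the Crabp1 window, with no overlap, and 2 times in that of Crabp2. It also occurred 4 times in Rbp4, where 1 pair overlapped, 4 times in Rarres1 and once in Aldh1a2, and not in the windows of Aldh1a1, Rarb and Rarres2. At least 1 GC box was found in 33.1% of all promoters. The TATA box TATAAA was found once in Crabp2 and once in Rbp4, and in 14.2% of all promoters. A match describes the letters of the window alone.

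Crabp1 had the widest spread of the 8 genes. Its probe set (1391074_at) was at 4.89 in FZ and 2.51 in PZ, and at 0.00 in MZ and −2.56 in HZ, against −2.32 in FCC. The value was lower in each zone than in the one above it, by 2.38 between FZ and PZ, by 2.51 between PZ and MZ and by 2.56 between MZ and HZ, so that each step down was over 5-fold. HZ minus FCC was −0.24, less in size than the usual spread between probe sets of a gene, which in this comparison had a median SD of 0.30 over 4525 genes with at least 2 probe sets, and the sign turned to 0.28 when arrays were shifted to equal hybridization controls. FZ exceeded FCC by 7.21, which is 148-fold, and HZ by 7.45, which is 175-fold, and both differences rank first among the 31042 probe sets in their direction. PZ exceeded FCC by 4.83 (28.4-fold) and HZ by 5.07 (33.6-fold), and MZ exceeded FCC by 2.32 (5.00-fold). Only 5 other probe sets of the array had a range over the 5 arrays as wide as this one, counted without regard to direction.

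Crabp2 had the same order of arrays with smaller steps. It was at 3.24 in FZ and 1.78 in PZ, and at 0.00 in MZ and −0.33 in HZ, against −0.07 in FCC (1370391_at). Both superficial zones were therefore high, while MZ, HZ and FCC lay within 0.33 of each other. The difference was 3.31 (9.89-fold) for FZ against FCC and 1.85 (3.60-fold) for PZ against FCC, and the second is under the threshold of 2. FZ exceeded PZ by 1.46, MZ by 3.24 and HZ by 3.57. PZ exceeded HZ by 2.11, or by 1.65 after the shift by hybridization controls, which takes it under the threshold. In contrast to Crabp1, Crabp2 did not separate MZ from HZ by more than 0.33. Its difference between HZ and FCC was −0.26 as deposited and 0.26 after the shift.

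**Figure D1:**
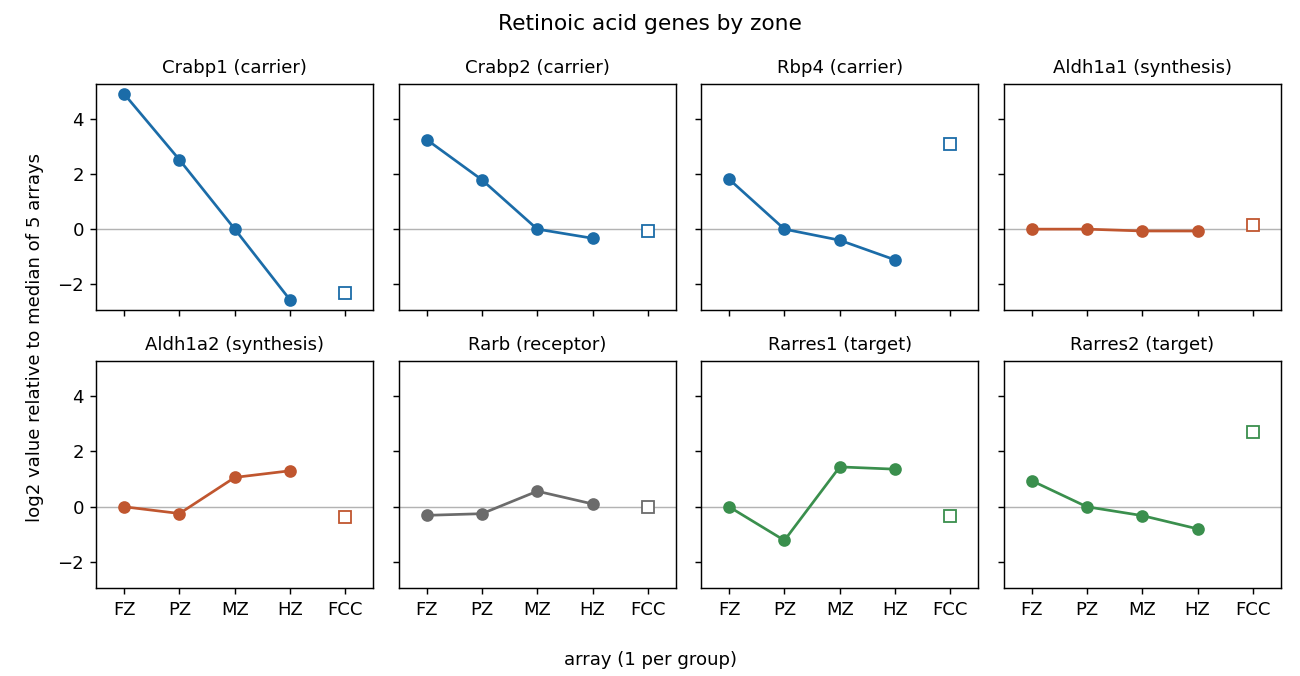
Log2 value of each of the 8 genes relative to its median over the 5 arrays (vertical axis), for the 4 MCC zones from the surface to the bone (filled circles joined by a line) and for FCC (open square), with 1 array per group and no error bars. Crabp1 goes through 4.89, 2.51, 0.00 and −2.56 from FZ to HZ, and FCC is the highest array for Rbp4 and Rarres2 at 3.07 and 2.71.

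Rbp4, the carrier that takes retinol through the blood and is made mainly by liver and fat, was at 1.81 in FZ and 0.00 in PZ, and at −0.40 in MZ and −1.11 in HZ, against 3.07 in FCC (1371762_at). All 4 MCC zones were thus lower than FCC, with FZ the closest to it. The difference from FCC was −1.27 for FZ, −3.07 for PZ (8.42-fold lower), −3.47 for MZ (11.1-fold lower) and −4.19 for HZ (18.2-fold lower), and that of FZ was −0.62 after the shift by hybridization controls. Within the MCC the order was the same as for Crabp1 and Crabp2 as deposited, while after that shift PZ minus MZ was −0.06. FZ exceeded PZ by 1.81, MZ by 2.21 and HZ by 2.92, while PZ and MZ were 0.40 apart, close to the median SD between probe sets of 0.31 for that comparison.

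The enzymes of retinoic acid synthesis had lower spreads than the 3 carriers. Aldh1a1 was at 0.00 in FZ and in PZ and at −0.07 in MZ and in HZ, against 0.16 in FCC (1387022_at). As deposited no pair of arrays differed by more than 0.22, and the probe set had a smaller range than most, with 15.5% of all probe sets below it. After the shift by hybridization controls, Aldh1a1 differed by 0.59 for FZ against PZ. FZ minus FCC was then 0.49, against −0.16 as deposited, and PZ minus MZ was −0.39, against 0.07. Values without a level do not tell an evenly expressed gene from one near background, and the sign of its difference between the MCC mean and FCC was −0.19 as deposited and turned to 0.25 with the shift by hybridization controls. Aldh1a2, the main enzyme of retinoic acid synthesis in the mammalian embryo, was at 0.00 in FZ and −0.24 in PZ, and at 1.06 in MZ and 1.30 in HZ, against −0.37 in FCC (1368003_at). Both deep zones were above the other 3 arrays. MZ exceeded FCC by 1.44 (2.71-fold) and HZ exceeded it by 1.68 (3.20-fold), and FZ was lower than MZ (−1.06) and than HZ (−1.30). These values are under the threshold as deposited, while HZ against FCC is 2.20 and PZ against HZ is −2.01 after the shift by hybridization controls.

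Rarb, a nuclear receptor of retinoic acid that is itself switched on by it, was at −0.31 in FZ and −0.25 in PZ, and at 0.56 in MZ and 0.10 in HZ, against 0.00 in FCC (1376755_at). MZ was the highest array and both superficial zones the lowest. The widest difference was −0.87 for FZ against MZ, and none reached 1 as deposited. FZ and PZ were 0.06 apart, less than the median SD between probe sets of 0.30, and their difference was 0.53 after the shift by hybridization controls. With that shift FZ also lay above FCC (0.34, against −0.31 as deposited), and the difference was 1.09 for MZ against FCC and −1.27 for PZ against MZ.

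The 2 genes named for their response to retinoids went in different directions along the zones. Rarres1, a membrane protein found in human skin as a gene induced by the retinoid tazarotene, was at 0.00 in FZ and −1.22 in PZ, and at 1.44 in MZ and 1.36 in HZ, against −0.34 in FCC (1382274_at). The deep zones were the highest arrays, at nearly the same value, and PZ the lowest. The difference was −2.66 for PZ against MZ (6.32-fold lower) and −2.58 for PZ against HZ (5.97-fold lower). FZ was also lower than both, with −1.44 against MZ and −1.36 against HZ. MZ exceeded FCC by 1.78 and HZ exceeded it by 1.70, which after the shift by hybridization controls are 2.30 and 2.22. The mean of FZ and PZ minus the mean of MZ and HZ was −2.01. With PZ alone in place of the superficial mean it was −2.62, while with FZ alone it was −1.40 and did not reach the threshold. With HZ alone in place of the deep mean it was −1.97, also under the threshold, and with MZ alone −2.05.

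Rarres2 encodes chemerin, a secreted protein that draws in macrophages and dendritic cells and acts on fat cells through the receptor Cmklr1. It was at 0.95 in FZ and 0.00 in PZ, and at −0.32 in MZ and −0.80 in HZ, against 2.71 in FCC (1371691_at). As for Rbp4, FCC was the highest array, FZ came next and HZ was the lowest. The difference from FCC was −1.76 for FZ, −2.71 for PZ (6.54-fold lower), −3.03 for MZ (8.16-fold lower) and −3.51 for HZ (11.4-fold lower), and that of FZ was −1.12 after the shift by hybridization controls. FZ exceeded MZ by 1.26 and HZ by 1.74.

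**Figure D2:**
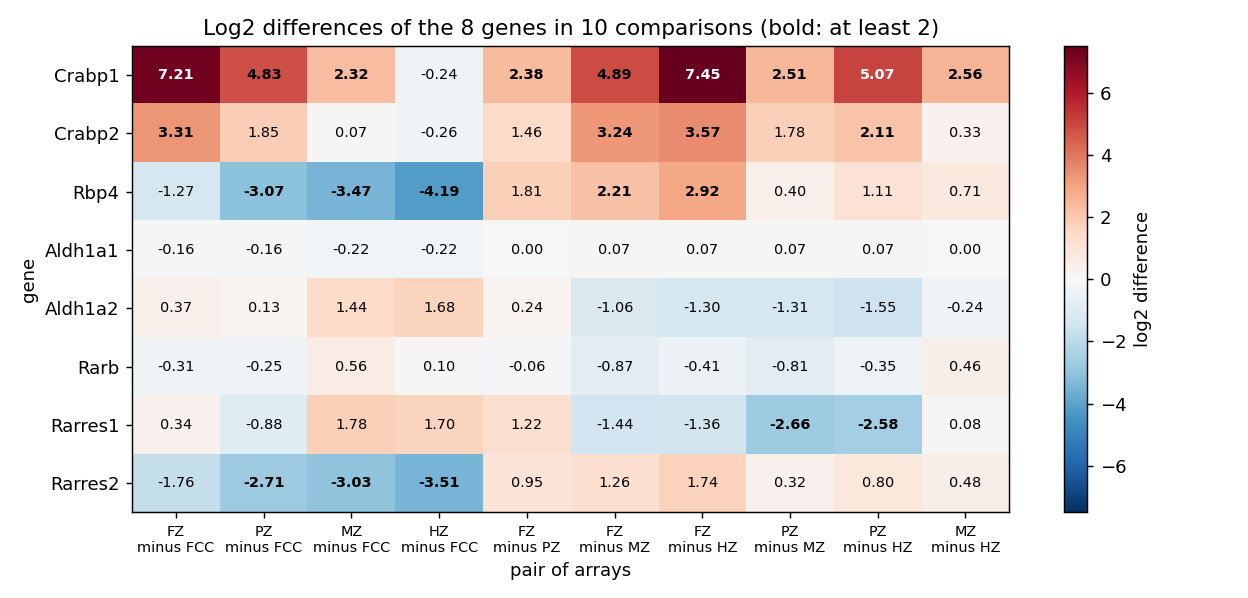
Log2 difference (colour and number) of each of the 8 genes (rows) in the 10 pairs of arrays (columns), with the array named first minus the array named second and bold numbers at a size of at least 2. The Crabp1 row is positive in all pairs but HZ minus FCC (−0.24), and the negative differences of Rbp4 and Rarres2 from FCC widen from FZ to HZ.

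Counted over the 10 pairs, 23 of the 80 differences were at least 2 in size. Against FCC, 2 of the 8 genes passed in FZ, both higher, where 2.13% of all probe sets passed in either direction. In PZ 3 passed (Crabp1 higher, Rbp4 and Rarres2 lower), with 2.43% over all probe sets, and in MZ the same 3 passed, with 2.47%. In HZ 2 passed, Rbp4 and Rarres2, both lower, with 3.55%. Between the zones, 3 passed for FZ against MZ and for FZ against HZ, which were Crabp1, Crabp2 and Rbp4, all higher, beside 0.854% and 1.25% over all probe sets. Crabp1 alone passed for FZ against PZ (0.609%) and for MZ against HZ (0.158%). For PZ against MZ the 2 were Crabp1, higher, and Rarres1, lower (1.11%), and for PZ against HZ Crabp2 was added to them (1.74%). Of the means, Crabp1 and Crabp2 (higher) and Rarres1 (lower) passed for the superficial against the deep zones (0.783%), and Crabp1 (higher), Rbp4 and Rarres2 (lower) for the MCC against FCC (1.81%). As the genes were chosen with these values in view, the shares over all probe sets are given for scale, and nothing is read from the comparison. The 4 comparisons with FCC share that array, and those that share a zone share its array.

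Of the 6 genes that ranged by at least 1 within the MCC, 4 had values that were lower in every zone than in the one above it, from FZ to HZ. These were Crabp1, Crabp2, Rbp4 and Rarres2. Among the 5274 probe sets with such a range, 9.73% had this order and 5.4% had the reverse order, which 0 of the 6 genes had. As the genes were chosen with their values known, these shares are given for scale. The step from PZ to MZ was small for Rbp4 (0.40) and Rarres2 (0.32). After the shift by hybridization controls, 2 kept the order, Crabp1 and Crabp2, while PZ lay under MZ for Rbp4 and Rarres2, and 6.01% of probe sets had it. Aldh1a2 and Rarres1 had both deep zones above both superficial zones.

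Likeness of 2 genes was measured as the root mean square difference of their values over the 5 arrays, each centred on its own mean. Among the 6 genes that ranged by at least 1, the closest pair was Rbp4 and Rarres2 at 0.41, with a Pearson correlation of 0.98 over the 5 arrays. Aldh1a2 and Rarres1 followed at 0.46 (correlation 0.93). Crabp1 and Crabp2 had a correlation of 0.96 and lay 1.58 apart, with the values of Crabp1 spread more widely. These correlations describe 5 arrays that share the baseline of each probe set.

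For 5 genes with a range of at least 2, the named genes of the array with the closest values were listed. Each was listed by 1 probe set. Dpt, Bcl11b, Aspn, Gpc3, Atp8a1 and Lnc215, like Ntrk2, had other probe sets, to which the likeness given does not extend. The 5 closest to Crabp1 were Miat, a noncoding RNA (root mean square difference 0.85), Dpt, a protein of fibrous matrix (1.05), Tnmd, a membrane protein of tendon cells (1.09), Bcl11b, a transcription factor (1.10), and Aspn, a proteoglycan that binds collagen (1.13). Miat was at 3.70 in FZ and 3.62 in PZ, and at 0.00 in MZ and −1.74 in HZ, against −1.39 in FCC. Closest to Crabp2 were Ntrk2, a neurotrophin receptor (0.13), Gpc3, a cell surface proteoglycan (0.19), and Megf6 (0.22). Ntrk2 was at 3.11, 2.01, −0.03 and −0.18 from FZ to HZ, against 0.00 in FCC, by 1 of its 5 probe sets. Closest to Rbp4 were C1qtnf2, a secreted relative of adiponectin (0.19), Arxes2 (0.38) and Sulf2, which trims sulfates from heparan sulfate (0.39). Closest to Rarres2 were Nt5e, the ectoenzyme that makes adenosine (0.17), Lnc215 (0.25) and Sulf2 (0.26), so that Sulf2 is among the 3 closest to both. Closest to Rarres1 were Atp8a1, a phospholipid flippase (0.13), Il2rg, the common chain of cytokine receptors on lymphocytes (0.14), and Hmox1, which breaks down haem (0.18). Il2rg was at 0.00 in FZ and −1.59 in PZ, and at 1.25 in MZ and 0.99 in HZ, against −0.60 in FCC.

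**Figure D3:**
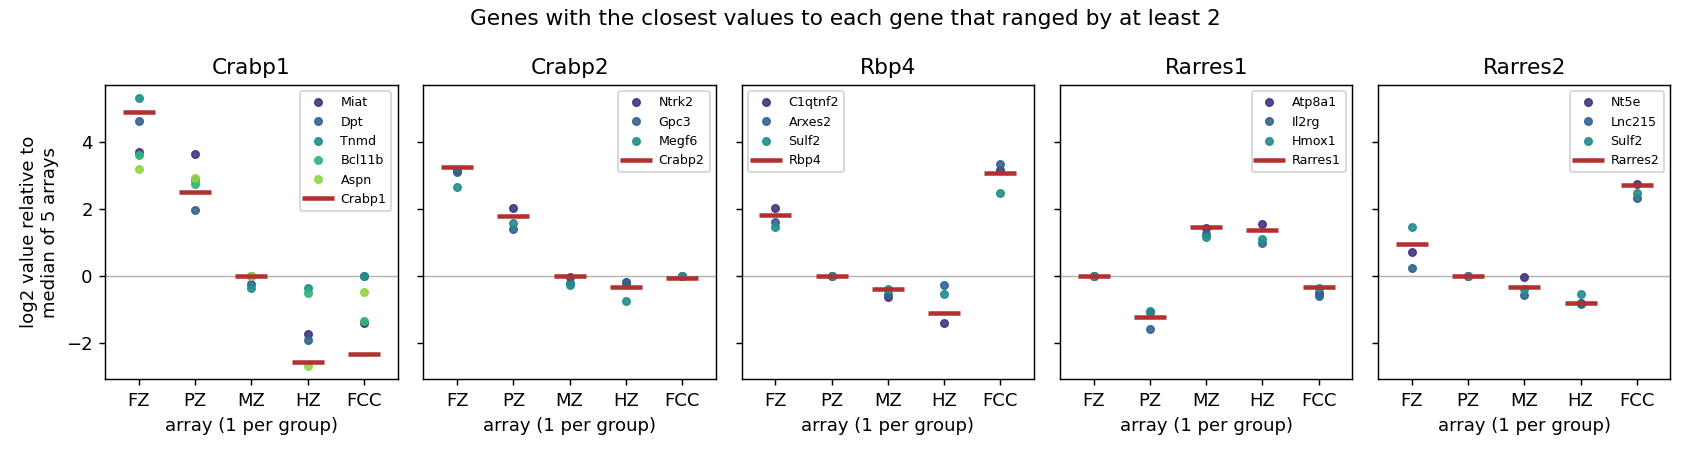
Log2 values relative to the median of the 5 arrays (vertical axis) for each gene that ranged by at least 2 (red bars) and the genes with the closest values (dots), 5 for Crabp1 and 3 for each other gene, by array with 1 array per group. The dots lie farther from the bars for Crabp1, whose closest gene differs by 0.85, than for Crabp2, whose closest gene differs by 0.13.

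Markers of several tissues moved along with these genes, and their part in the results was not tested. Of 7 markers of tendon and fibrous tissue (Tnmd, Dpt, Aspn, Mfap5, Col14a1, Thbs2 and Postn), 7 were at least 1 higher in the superficial than in the deep zones, as Crabp1, Crabp2 and Rbp4 were. Their mean value was 2.79 in FZ and 1.41 in PZ, and −0.82 in MZ and −1.72 in HZ, against −0.06 in FCC. Aldh1a2 and Rarres1 were high in the zones where macrophage, erythroid, endothelial, hypertrophic chondrocyte and osteoblast markers were high. The mean of 4 osteoblast markers was −0.11, −0.14, 0.38 and 0.65 from FZ to HZ, against −0.82 in FCC. Of the 4, 1 (Phex) was at least 1 lower in the superficial zones. The mean of 5 macrophage markers was −0.02 in FZ and −0.39 in PZ, and 0.56 in MZ and 0.81 in HZ, against −0.81 in FCC, and 2 of them, Csf1r and Cd68, were at least 1 lower in the superficial zones. The mean of 5 erythroid markers was −0.70, −1.19, 0.93 and 1.77 from FZ to HZ, against 0.00 in FCC, with 5 of 5 at least 1 lower in the superficial zones. The mean of 4 endothelial markers was −0.17, −0.19, 0.73 and 0.56, against −0.32 in FCC, and 2 of the 4, Cldn5 and Tek, were lower by 1. Of 5 markers of hypertrophic chondrocytes, 4 were at least 1 lower in the superficial than in the deep zones (Col10a1, Ihh, Spp1 and Alpl), and their mean was −0.79, −1.003, 0.93 and 0.54 from FZ to HZ, against 0.06 in FCC. Beside Rbp4 and Rarres2, which fat tissue is known to make, the mean of 5 adipocyte markers was −0.13, −0.03, 0.01 and −0.03 from FZ to HZ, against 0.36 in FCC, and 0 of the 5 differed by 1 between the MCC mean and FCC. Of 6 hyaline cartilage markers measured, 5 were at least 1 lower in the MCC mean than in FCC, as Rbp4 and Rarres2 were. The exception was Col2a1 (−0.65), whose 3 probe sets disagreed in sign, at 1.86, −2.05 and −1.75. The mean of the 6 markers was −1.95, 0.14, 0.51 and −1.40 from FZ to HZ, against 2.11 in FCC. Beside Crabp1, Crabp2 and Fabp5, which were higher in the MCC mean than in FCC, 5 of 5 cell cycle markers were at least 1 higher there too, with a mean of 0.22, −0.32, 0.01 and 0.31 from FZ to HZ, against −1.24 in FCC.

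The wider retinoid pathway was followed in a list of 62 genes, of which 53 had a probe set. The value of a gene is the mean of its probe sets, and members at least 1 apart were counted. Between the superficial and the deep zones, 5 of 53 were higher (2.24% of all genes) and 3 were lower (3.78% of all genes), and the median of the list was 0.04, against −0.0032 for all genes. The higher ones were Crabp1 (4.98), Crabp2 (2.68), Rbp4 (1.66), Cmklr1 (1.38) and Rarres2 (1.03), and the lower ones Rarres1 (−2.01), Aldh1a2 (−1.30) and Cyp2s1 (−1.08). Rarres2 was 0.86 after the shift by hybridization controls. Apart from the 8 genes described above, 1 of 45 was therefore higher and 1 lower. Between the mean of the MCC zones and FCC, 3 were higher (5.13% of all genes), Crabp1 (3.53), Fabp5 (1.70) and Crabp2 (1.24), and 4 were lower (4.7% of all genes), Meis2 (−3.63), Rbp4 (−3.00), Meis1 (−2.89) and Rarres2 (−2.75). Apart from the 8 genes, 1 of 45 was therefore higher (Fabp5) and 2 were lower (Meis1 and Meis2). The median of the list was −0.01, against 0.02 for all genes.

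Fabp5, which can carry retinoic acid to the receptor Ppard, was at 0.64 in FZ and 0.27 in PZ, and at 0.00 in MZ and −0.07 in HZ, against −1.49 in FCC, so that FCC was the lowest array. FZ was its highest array, as for Crabp1 and Crabp2. The cytoplasmic retinol carriers Rbp2 and Rbp7 ranged by only 0.19 and 0.51. As deposited both were highest in PZ, at 0.15 and 0.23, and Rbp7 was lowest in FZ, at −0.28. After the shift by hybridization controls PZ was the highest array for neither, and Rbp7 was lowest in FCC. Stra6, the cell surface receptor that takes up retinol from Rbp4, had 5 probe sets, and none of them ranged by more than 0.83. The genes of retinol and retinal metabolism are a group that also holds enzymes of retinyl ester and carotene handling and Lpl. Of these, 0 of 12 were 1 apart in either of these comparisons as deposited. After the shift by hybridization controls, Lpl was at least 1 higher in the MCC mean than in FCC. Rdh10, which makes retinal in the embryo, ranged by 1.11 by 1 of its probe sets and by 0.30 by the other. By the first, PZ was the highest at 0.48 and FCC the lowest at −0.63 as deposited. After the shift by hybridization controls MZ was the highest by that probe set. Rdh11 and Dgat1, an enzyme of fat synthesis that can also store retinol as ester, were lowest in PZ.

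Breakdown was represented by Cyp26a1, Cyp26b1 and Cyp2s1. Cyp26b1, the member of the Cyp26 family known for clearing retinoic acid in developing cartilage and bone, was at 0.77 in FZ and −0.22 in PZ, and at −0.22 in MZ and −0.30 in HZ, against 0.70 in FCC. FZ and FCC were thus the high arrays, as for Rbp4 and Rarres2. The difference from FCC was 0.07 for FZ and −1.01 for HZ, and its 2 probe sets gave −0.34 and −1.06 for the MCC mean against FCC. These values are as deposited. After the shift by hybridization controls the −0.34 turned positive. The −1.06 and the −1.01 for HZ then fell under 1 in size, and FZ lay farther above FCC. Cyp2s1, a cytochrome P450 that can act on retinoic acid, was at 0.00, −0.12, 0.89 and 1.15 from FZ to HZ, against −0.25 in FCC, the order of arrays seen for Aldh1a2.

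Of 13 nuclear receptors and cofactors measured, Rarb among them, 0 ranged by at least 1 over the 5 arrays as deposited. This is by the mean of their probe sets, and 27.2% of all 14217 genes had such a range as deposited. Single probe sets of Rxrg, Ncor1 and Zfp423 ranged by more than 1. After the shift by hybridization controls, Rarb differed by −1.27 for PZ against MZ. Nrip1 was then at least 1 higher in the MCC mean than in FCC, so the 0 does not hold under that scaling. Among the genes induced by retinoic acid, Meis1 and Meis2, homeobox factors of the proximal limb that retinoic acid can induce, stood out in FCC. Meis2 was at −0.16 in FZ and 0.09 in PZ, and at 0.00 in MZ and −0.04 in HZ, against 3.61 in FCC. Meis1 was at 0.21, −0.50, 0.00 and −0.99, against 2.57 in FCC. Tgm2, a transglutaminase that retinoic acid induces in many cells, did not differ by 1 in these comparisons. Cmklr1, the receptor of chemerin, was at 1.02 in FZ and 0.61 in PZ, and at −1.15 in MZ and −2.07 in HZ, against 0.00 in FCC, by 1 of 3 probe sets, and at 0.50, 0.21, −1.14 and −1.52, against 0.00, by another. The third ranged by only 0.06. Its ligand Rarres2 was likewise higher in FZ than in HZ, yet it was highest in FCC, where Cmklr1 was at its median.

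**Figure D4:**
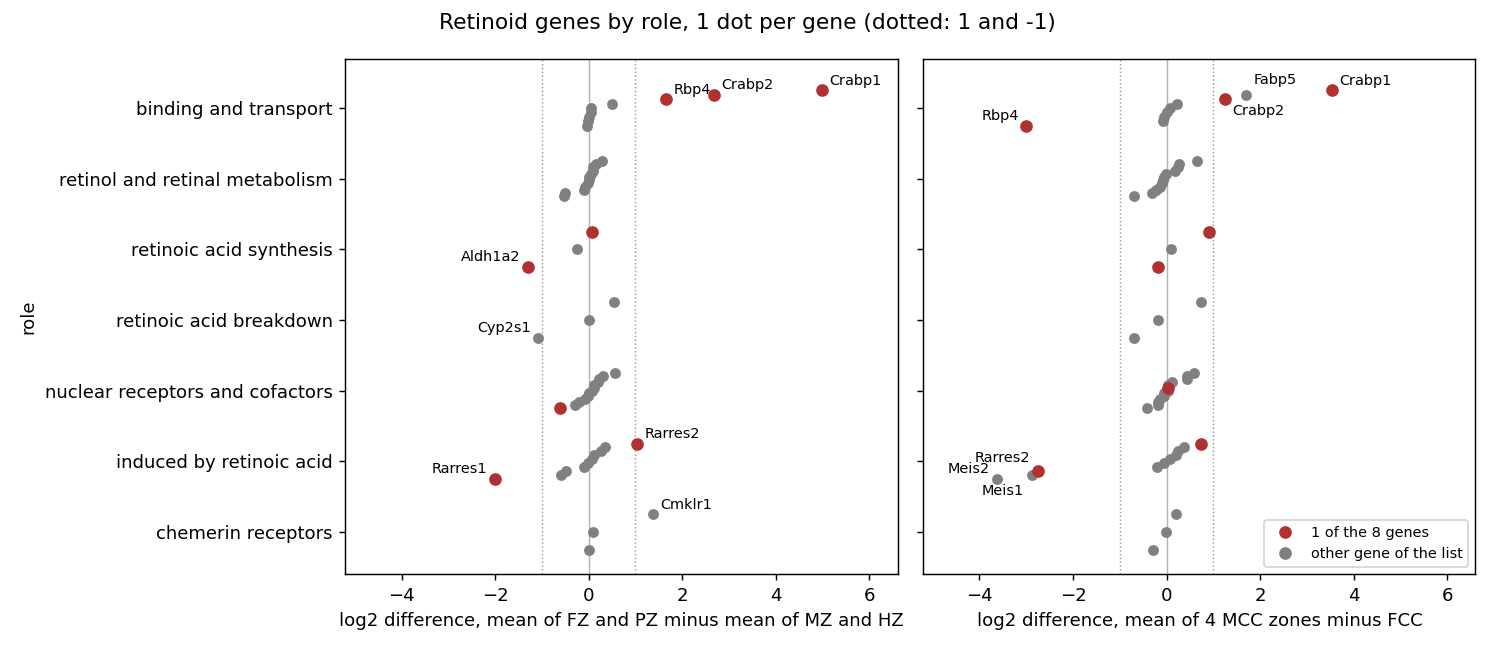
Log2 difference of each measured gene of the retinoid list (dots, red for the 8 genes described and grey for the others) by role, for the mean of FZ and PZ minus the mean of MZ and HZ (left) and for the mean of the 4 MCC zones minus FCC (right), with genes at least 1 apart named. Most dots lie between −1 and 1, with Crabp1 at 4.98 on the left and Meis2 at −3.63 on the right.

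Some arrays stood apart from the rest in ways that touch these values. Against all 4 other arrays, 248 probe sets were at least 2 higher in FCC, and 40 were at least 2 lower in FCC, 39 in PZ and 19 in HZ. PZ was the array in which Rarres1, Rdh11 and Dgat1 were lowest. For the GAPDH control, the difference between its 5′ and 3′ probe sets was 1.36 in PZ, relative to their medians, and between −0.21 and 0.27 in the other arrays, and for beta-actin it was 1.24 in FCC and between −0.24 and 0.14 in the zones. The hybridization controls averaged −0.15 in FZ and 0.44 in PZ, and −0.02 in MZ and −0.03 in HZ, against 0.50 in FCC. Bringing them to equal means moved the median of all probe sets to 0.65 for FZ against FCC, 0.52 for MZ and 0.525 for HZ against FCC, 0.54 for FZ against PZ and −0.15 for the superficial against the deep zones, and the differences above are relative to medians of about 0.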

How the data were processed

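The authors made the log2 values from Affymetrix rat genome arrays. MAS5 and RMA are named in the processing notes of the submitters, and the methods describe RMA in GeneSpring with quantile normalization and a baseline at the median of all samples. The median over the 5 arrays is 0 for all 31099 probe sets, so no expression level or background is known and the number of arrays limits the precision. The lowest-intensity filter of the study needs levels and was not applied. Probe sets carry no coordinates, and those printed are of GRCr8. RNA was amplified in 2 linear rounds.

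Differences were computed with pandas 2.3.3 and numpy 2.4.6 under Python 3.11.15, and figures drawn with matplotlib 3.10.9, after 57 control probe sets were set aside, which left 31042. Of these 20826 have 1 gene symbol, 436 several and 9780 are not listed. Symbols were updated through the RefSeq gene table. With 1 array per group, no replicate error could be taken. How far probe sets of 1 gene differ on the same arrays is given for scale only. That spread does not measure variation between animals, captures or arrays. The functions were tested on simulated data. The genes and lists were chosen with earlier results of these data known. Named genes are the 8 genes, those of the retinoid list that ranged by at least 1, and the closest profiles, and a few others (such as Rdh10, Stra6 and Tgm2) were added with their values known. The 11 marker lists were those of tendon and fibrous tissue, hyaline chondrocytes, hypertrophic chondrocytes, adipocytes, macrophages, erythroid cells, endothelium, smooth muscle, osteoblasts, synovial lining and the cell cycle. Alternatives were other array scalings, thresholds, arrays averaged and probe sets per gene.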

Additional observations from a re-analysis of the deposited data

How the results depend on the processing

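Centring each array on its median left all values as they were, and with 1 probe set per gene the choice of probe set could not change a value of the 8 genes. After the shift by hybridization controls, 23 of 23 differences of at least 2 kept their sign and 22 stayed at that size, and 28 passed in all. For HZ against FCC 4 genes in place of 2 passed (Aldh1a2 and Rarres1 were added). For MZ against FCC 4 in place of 3 passed (Rarres1 was added), and for FZ against PZ 3 in place of 1 (Crabp2 and Rbp4 were added). The shift moved the median of all probe sets to 0.525, 0.52 and 0.54 in these pairs. The share of all probe sets that passed after it was not counted, so nothing is read from these added genes. The same shift gave 12 in place of 7 genes of the retinoid list at least 1 apart between the MCC mean and FCC, 8 of them higher and 4 lower, beside a median of all genes of 0.46. This shift also left 2 in place of 4 genes with values falling from FZ to HZ, a setting chosen after seeing the data. The count of 23 differences becomes 35 at a threshold of 1.4 and 43 at a threshold of 1, where the shares of all probe sets were not counted. For Crabp1 the difference between the superficial and the deep zones lay between 3.70 and 6.26 when either side was taken as a single array. No paired analysis was possible because each group has 1 array. The marker lists of smooth muscle, osteoblasts and synovial lining had medians of 0.33, −0.43 and −0.56 between the superficial and the deep zones, and of −0.29, 0.66 and −0.20 between the MCC mean and FCC.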
